A study of Homo sapiens with 12 samples.

Results

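The collagens, the laminins and their basement membrane partners were followed through 12 RNA-seq libraries of TeloHAEC cells, a telomerase-immortalised human aortic endothelial cell line. Members were taken by symbol: collagen chains (COL, a number, A, a number), laminin chains (LAMA, LAMB or LAMC with a number), both nidogens (NID1, NID2), perlecan (HSPG2), agrin (AGRN) and peroxidasin (PXDN). The members are 60 genes among the 35587 symbols of the deposited table. A gene counted as expressed when it reached 1 TPM (an abundance scaled to a common total per library and corrected for transcript length) in at least 2 libraries. This held for 31 members, among 13299 expressed genes, and covered 17 of 44 collagens, 9 of 11 laminins and all 5 of the other genes.

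A basement membrane is the thin sheet of matrix on which endothelial cells sit. Its 2 networks are built from laminin, a trimer of 1 alpha, 1 beta and 1 gamma chain, and from collagen IV, whose common form holds alpha1 and alpha2 chains (COL4A1, COL4A2). Nidogens and perlecan bridge these networks, agrin and collagen XVIII carry sugar chains in the same layer, and peroxidasin makes the sulfilimine bonds that cross-link collagen IV.

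The control line (NT) is labelled wild type, and the other lines were made with Cas9 and a guide against TSPAN14 (TKO) or NOTCH1 (NKO). TSPAN14 is a tetraspanin that partners ADAM10, a protease that cuts Notch receptors, and NOTCH1 is one of those receptors. Cells of each line were kept at the same passage and spent 24 h on plates coated with IgG, the control protein, or with Delta-like ligand 4 (DLL4), a ligand of Notch receptors, each at 2.5 mg/mL. The design asks how DLL4 changes each line and how the edited lines differ from NT on each coating. Each of the 6 groups had 2 libraries of polyadenylated RNA. Each editing target is present as 1 line, and whether a line is a clone is not given in the sources used here, so the effect of the targeted gene cannot be told apart from other differences between lines. Separate cultures are not named in the labels, which speak only of biological replicates, and the p-values therefore measure the spread between these libraries.

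TSPAN14 was lower in TKO than in NT cells, at 109 to 148 TPM against 172 to 218 TPM. NOTCH1 was lower in NKO than in NT cells on DLL4 (log2 change -0.61, limma adjusted p = 0.023), but not on IgG (-0.10, adjusted p = 0.72), so the level of its mRNA is only a partial check of that label. All 10 endothelial markers examined, among them CDH5, ERG and ESAM, stood above 1 TPM in every library, with sums of 2149 to 2548 TPM. Depth is unknown, since TPM keep no read counts. The pseudogene KPNA2P2 took 0.273% to 5.48% of the nominal total, with the highest share in TKO IgG 3. Libraries are named by the number in their column.

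Perlecan, collagen IV, collagen XVIII and the chains of vascular laminins made up most of the members' RNA. Averaged over the 12 libraries, HSPG2 stood at 586 TPM, COL4A2 at 477 TPM, COL4A1 at 417 TPM, LAMB1 at 353 TPM, COL18A1 at 286 TPM and LAMA5 at 281 TPM. LAMB2, LAMA4, COL13A1, LAMC1, COL6A2, PXDN and COL5A1 followed, at 103 to 213 TPM. In all, 13 members averaged at least 100 TPM, 23 at least 10 TPM and 25 at least 5 TPM. The other 6 expressed members (COL9A3, COL16A1, LAMA2, COL1A2, LAMB4 and COL28A1) averaged 0.648 to 1.60 TPM. LAMB4 (mean 0.651 TPM) and COL28A1 (0.648 TPM) lay just inside the expression threshold, and COL1A1 (highest library 0.820 TPM) and COL12A1 (0.835 TPM) just outside. Of the 29 members below the threshold, 28 reached 1 TPM in no library, and COL5A3 did so in 1 (1.25 TPM). COL4A3 and COL4A4, the remaining collagen IV chains, are among the 28.

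The 31 expressed members together held 3408 ± 121 TPM (SD, n = 2) on IgG and 5668 ± 551 TPM on DLL4 in the NT line. In TKO cells the sums were 2848 ± 228 and 3870 ± 97.1 TPM, and in NKO cells 3355 ± 152 and 3903 ± 229 TPM. The NT libraries on DLL4 were the highest of all, and every line had a higher sum on DLL4 than on IgG without overlap of its libraries. In a bulk sample, fewer cells of a type and less RNA per cell cannot be told apart.

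**Figure D1:**
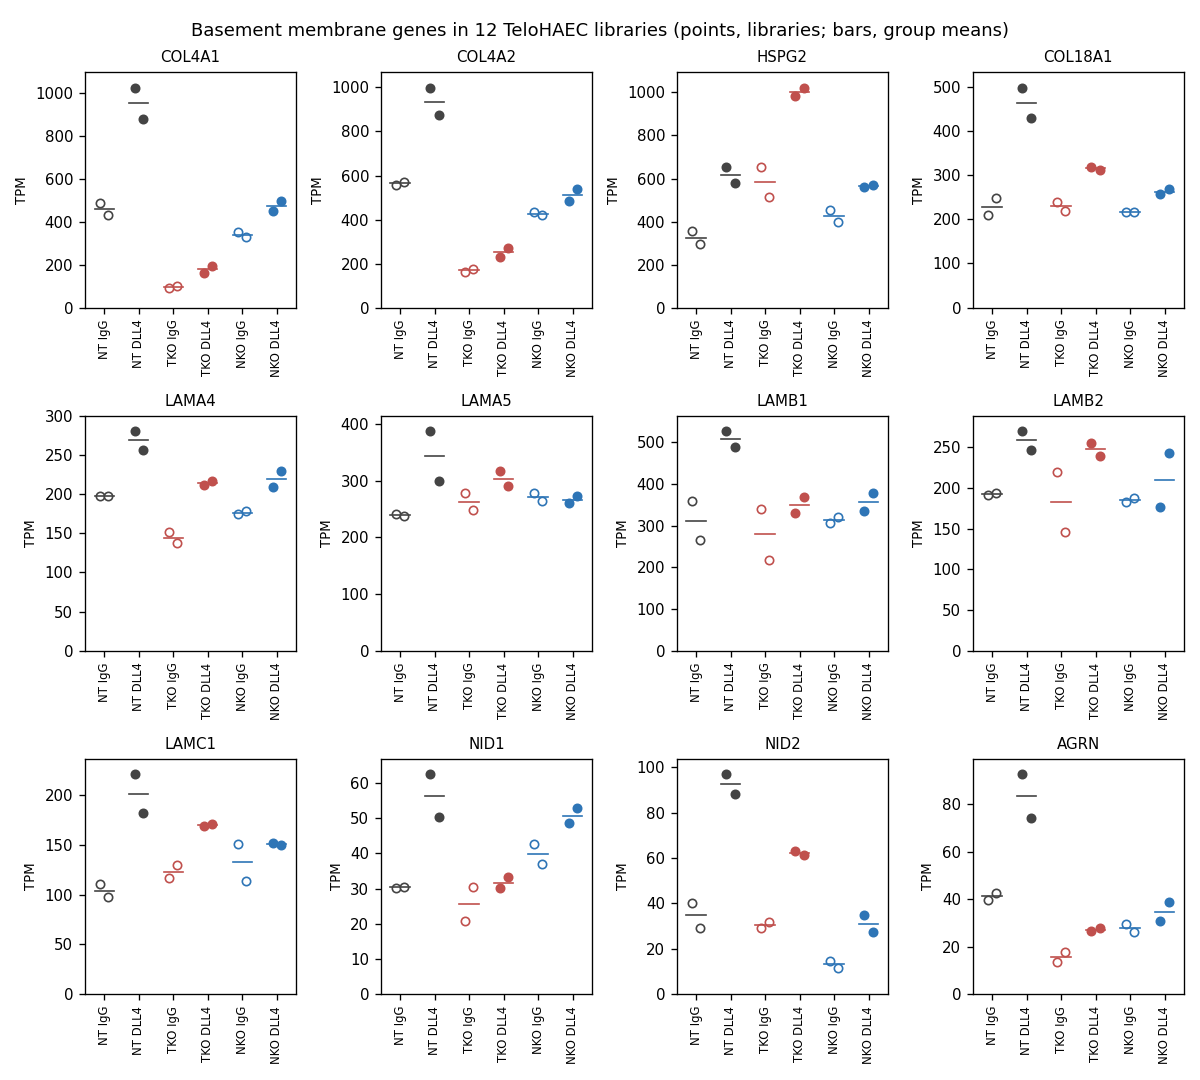
TPM of 12 basement membrane genes (vertical axes, linear) in the 6 groups (horizontal axes), with open points for IgG, filled points for DLL4 and bars for group means of 2 libraries. COL4A1 and AGRN are low in TKO cells while HSPG2 is highest there on each coating, and NID2 is low in NKO cells on IgG (14.6 and 11.6 TPM).

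DLL4 raised much of the basement membrane set in NT cells. NID2, COL5A1, COL4A1, COL18A1 and AGRN rose the most, by log2 changes of 0.99 to 1.41, and LAMC1, HSPG2, NID1, COL5A2 and COL4A2 followed at 0.72 to 0.94. Of the 31 expressed members 15 rose and 1, COL17A1, fell. Over all genes tested 7.68% rose and 8.34% fell on DLL4 in NT cells, and 16% passed in either direction (limma on log2(TPM + 1), Benjamini-Hochberg adjusted p below 0.05). The members' median log2 change was 0.42, against 0.01 over all genes. All 16 called members were among the 25 that averaged at least 5 TPM. These changes are on the log2(TPM + 1) scale, which understates the change of genes near 1 TPM. Without NT DLL4 2 the calls of LAMB1, LAMA5, COL6A1, NID1 and COL27A1 were lost and 11 remained. LAMB1, LAMA5 and COL27A1 also lost theirs without NT IgG 3, COL6A1 and COL27A1 without NT IgG 2, and LAMB1 without NT DLL4 3.

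In TKO cells DLL4 raised 9 members, all of which also rose in NT cells: NID2, COL4A1, HSPG2, AGRN, COL5A1, COL4A2, LAMA4, COL18A1 and COL6A1. LAMB3 fell. The background was 4.11% higher and 2.41% lower, or 6.51% in either direction, and the members' median was 0.21 against 0.01 over all genes. This count depends on the spread being shared with the other groups: a fit of only the 4 TKO libraries called 1 member, NID2. That fit called 1.25% of all genes. Without TKO DLL4 3 the count was 4 (HSPG2, COL4A1, LAMA4 and NID2), without TKO DLL4 2 it was 7, with COL18A1, COL6A1 and AGRN lost, and without TKO IgG 2 or TKO IgG 3 it was 9. COL6A1 lost its call in all 4 of these fits, AGRN and LAMB3 also without TKO IgG 2, and COL18A1 also without TKO IgG 3.

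In NKO cells NID2 was the 1 member that rose on DLL4, with 0.511% of all genes called higher, 0.271% lower and 0.782% in either direction. At an unadjusted p below 0.05 there were 9 of 31 members, against 9.18% of all genes. The members' median was 0.16, against 0.01 over all genes. NID2 was thus called higher on DLL4 in all 3 lines. A fit of only the 4 NKO libraries called 0 of the 13299 genes, 865 of which had an unadjusted p below 0.05.

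Whether the lines responded differently was tested directly. COL5A1 and COL18A1 responded less in NKO than in NT cells, with differences of -1.05 ± 0.15 (SE, adjusted p = 0.012) and -0.74 ± 0.13 (adjusted p = 0.036). These 2 of 31 members stand against 0.571% of all genes with a lower response and 0.887% in either direction. The members' median difference was -0.40, with 27 of 31 below 0, against 0.00 over all genes, and 13 had an unadjusted p below 0.05, as did 12.9% of all genes. Between TKO and NT cells limma called 0 members, with 0.526% of all genes called in either direction and 8 members and 15.5% of all genes at an unadjusted p below 0.05. COL5A1 came nearest (-0.76, adjusted p = 0.063), then COL13A1 (-0.59, adjusted p = 0.09) and COL18A1 (-0.56, adjusted p = 0.091). The call of COL5A1 in NKO cells was lost without NT IgG 2, NT DLL4 2 or NKO DLL4 1. COL18A1 kept its call only without NT IgG 3 or NT DLL4 3, and lost it without each of the other 6 libraries.

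**Figure D2:**
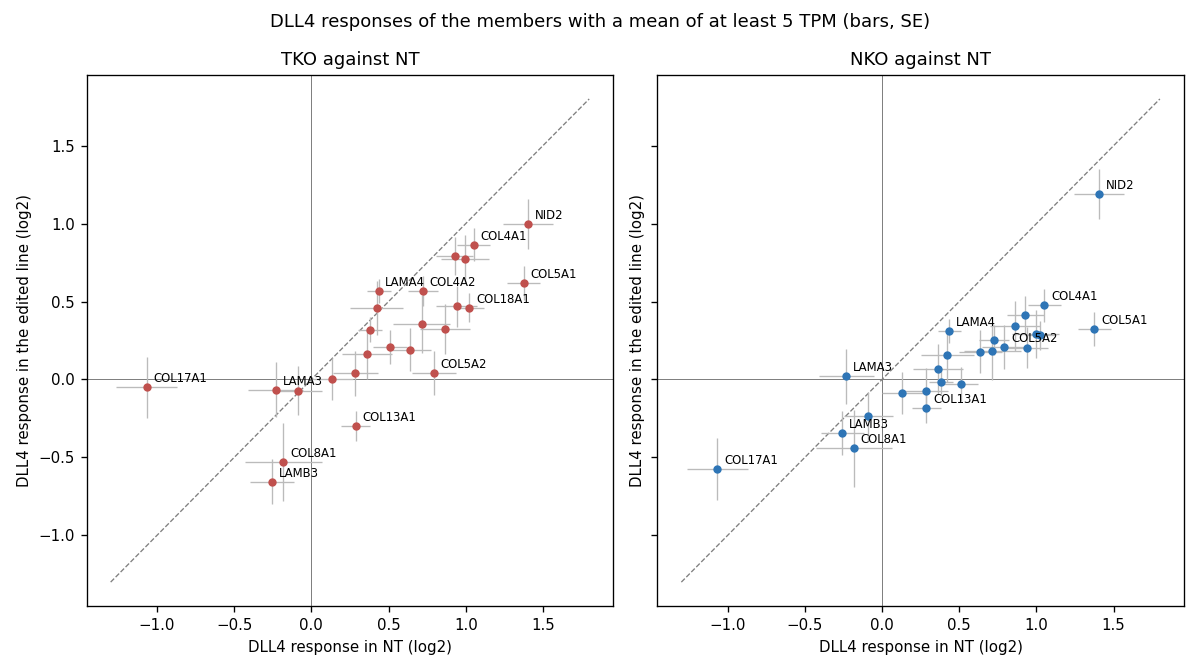
DLL4 response (log2 change of TPM + 1) in an edited line (vertical axis) against that in NT cells (horizontal axis) for the 25 members averaging at least 5 TPM, with TKO on the left and NKO on the right. Bars are SE and the dashed line marks equal responses. Both axes use the same NT libraries on the horizontal, and NID2 lies nearest the top in both panels.

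TKO cells had far less collagen IV and agrin RNA than NT cells and more perlecan. On IgG, COL4A1, COL4A2, AGRN, COL17A1, LAMA2, LAMB3 and LAMA4 were lower, and COL1A2, HSPG2, COL6A2 and LAMA3 were higher. These 7 lower and 4 higher members include LAMA2 and COL1A2. Of all genes 12.4% were lower and 15.2% higher, and 27.6% passed in either direction. On DLL4, 13 members were lower and 4 higher, against 10.5% and 16.1% of all genes (26.6% in either direction). HSPG2, COL6A2 and LAMA3 were higher on both coatings, and so was COL1A2. However, COL1A2 reached 1 TPM in TKO libraries alone, and LAMA2 in NT and NKO libraries alone. Their differences between TKO and NT cells were thus built into the expression filter, and nothing is read from them. Both enter the counts and medians of this paragraph, but neither is among the 25 members averaging at least 5 TPM. Lower on DLL4 were COL4A1, COL4A2, AGRN, LAMA2, COL5A1, COL5A2, LAMB3, NID1, COL27A1, COL13A1, NID2, COL18A1 and LAMA4. The members' medians were -0.17 on IgG and -0.33 on DLL4, against 0.04 and 0.03 over all genes.

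Among the 25 members averaging at least 5 TPM, TKO cells had 6 lower and 3 higher on IgG, and 12 lower and 3 higher on DLL4. A fit of only the genes averaging at least 5 TPM called 31.1% of them on IgG and 29% on DLL4. That fit called 9 and 16 of the 25 members, so the count on IgG lay near the share of all genes. On IgG, LAMA2 lost its call without NT IgG 2, TKO IgG 2 or TKO IgG 3, LAMB3 without NT IgG 3 or TKO IgG 3, and LAMA3 without NT IgG 3 or TKO IgG 2. On DLL4, NID2 lost its call without any 1 of the 4 libraries, LAMA4 without NT DLL4 2 or TKO DLL4 2, LAMA2 without NT DLL4 2 or TKO DLL4 3, and COL6A2 without NT DLL4 3 or TKO DLL4 3.

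NKO cells had less NID2, collagen IV and agrin RNA than NT cells and more LAMA3 on both coatings. On IgG 5 members were lower (NID2, LAMB3, AGRN, COL4A1 and COL4A2) and 4 higher (LAMA3, COL5A1, COL6A2 and COL6A1), against 5.74% and 4.92% of all genes and 10.7% in either direction. On DLL4 12 were lower and 2, LAMA3 and COL17A1, were higher, against 9.31% and 11.4% of all genes (20.7% in either direction). The 12 were NID2, AGRN, COL4A1, COL4A2, COL18A1, LAMB3, COL4A6, COL13A1, COL5A2, COL27A1, LAMA5 and LAMA4. The medians were 0.02 on IgG and -0.31 on DLL4, with 0.06 over all genes on both. TKO and NKO cells were compared with the same NT libraries.

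On IgG the NKO calls of COL4A1, COL4A2, AGRN, LAMB3 and COL6A1 were lost when any 1 of the 4 libraries was left out, that of COL6A2 without NKO IgG 1 and that of LAMA3 without NT IgG 3. The count was then 3 without NT IgG 3 or NKO IgG 1, 4 without NT IgG 2 and 5 without NKO IgG 2, and a fit of only the 4 libraries gave 3. NID2 and COL5A1 kept their calls in each of these fits. On DLL4 the count was 8 without NT DLL4 2, NKO DLL4 1 or NKO DLL4 2, and COL5A2 and COL27A1 lost their calls without any 1 library. LAMA5 and COL4A6 lost theirs without each of those 3 libraries, COL17A1 without NT DLL4 3 or either NKO library, LAMA4 without NT DLL4 2 or NKO DLL4 1, and LAMB3 without NT DLL4 2 or NKO DLL4 2.

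**Figure D3:**
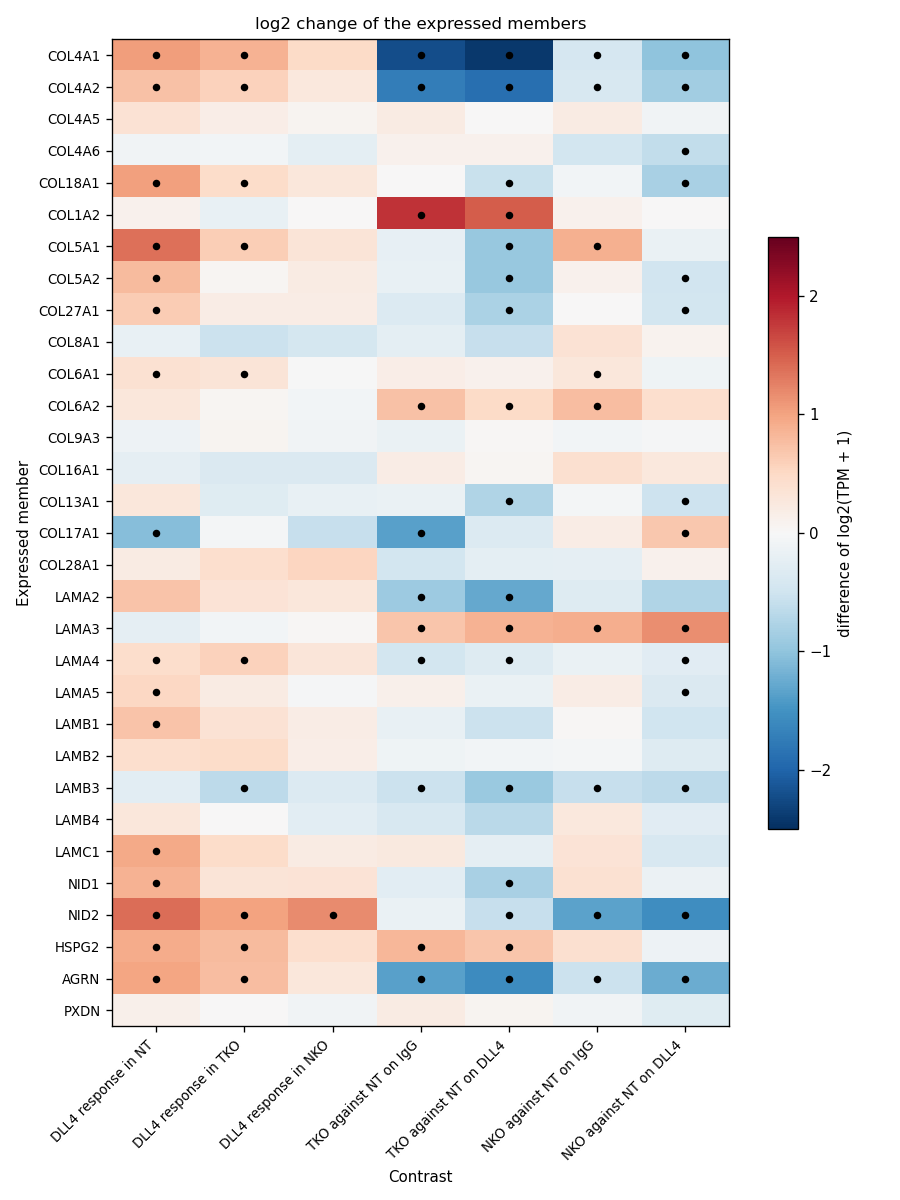
log2 change (colour, difference of log2(TPM + 1)) of the 31 expressed members (rows, by role) in 7 contrasts (columns), with a dot where limma's adjusted p was below 0.05. The lowest values are those of COL4A1 and COL4A2 in TKO against NT cells.

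Collagen IV showed the largest change among members averaging at least 5 TPM. COL4A1 stood at 486 and 431 TPM in NT cells on IgG and at 1025 and 880 TPM on DLL4. In TKO cells it was 93.9 and 101 TPM on IgG and 163 and 194 TPM on DLL4, and in NKO cells 351 and 330 TPM, then 453 and 497 TPM. The TKO libraries on DLL4 thus lay below every NT and NKO library on IgG. COL4A1 was lower in TKO than in NT cells by log2 changes of -2.22 ± 0.11 on IgG (adjusted p = 1.6e-07) and -2.41 ± 0.11 on DLL4 (adjusted p = 8.6e-08). Within TKO cells it still rose on DLL4 by 0.86 ± 0.11 (adjusted p = 0.00072), and the difference from the rise of 1.05 ± 0.11 in NT cells was -0.19 (adjusted p = 0.59). In NKO cells the value on DLL4 against IgG was 0.48 ± 0.11 (adjusted p = 0.083), and COL4A1 was lower than in NT cells on DLL4 by -1.0 ± 0.11 (adjusted p = 9.1e-05).

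COL4A2, the partner chain, had 559 and 571 TPM in NT cells on IgG and 998 and 874 TPM on DLL4. TKO cells had 161 and 177 TPM, then 230 and 273 TPM, and NKO cells 435 and 420 TPM, then 483 and 539 TPM. As for COL4A1, the TKO groups were lowest and NT cells on DLL4 highest, and no TKO library overlapped another line. The log2 change between TKO and NT was -1.74 ± 0.10 on IgG (adjusted p = 4.8e-07) and -1.89 ± 0.10 on DLL4 (adjusted p = 2.1e-07). On IgG the pair made up 30.0% of the members' RNA in the NT line, 9.40% in the TKO line and 22.9% in the NKO line. On DLL4 the shares were 33.3%, 11.1% and 25.3%. The ratio of COL4A2 to COL4A1 on IgG was 1.24 ± 0.13 for NT, 1.73 ± 0.03 for TKO and 1.26 ± 0.02 for NKO, and on DLL4 it was 0.983, 1.41 and 1.08. It was lower on DLL4 than on IgG in each line and highest in TKO cells. The ratio is a description and was not tested.

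The second collagen IV pair did not follow. COL4A5 ranged from 24.2 to 36.2 TPM over the 12 libraries and passed in no contrast. COL4A6 ranged from 18.2 to 37.4 TPM and was called once, lower in NKO than in NT cells on DLL4 (-0.62 ± 0.16, adjusted p = 0.018). PXDN, whose product acts on collagen IV, ranged from 93.6 to 144 TPM and passed in no contrast.

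**Figure D4:**
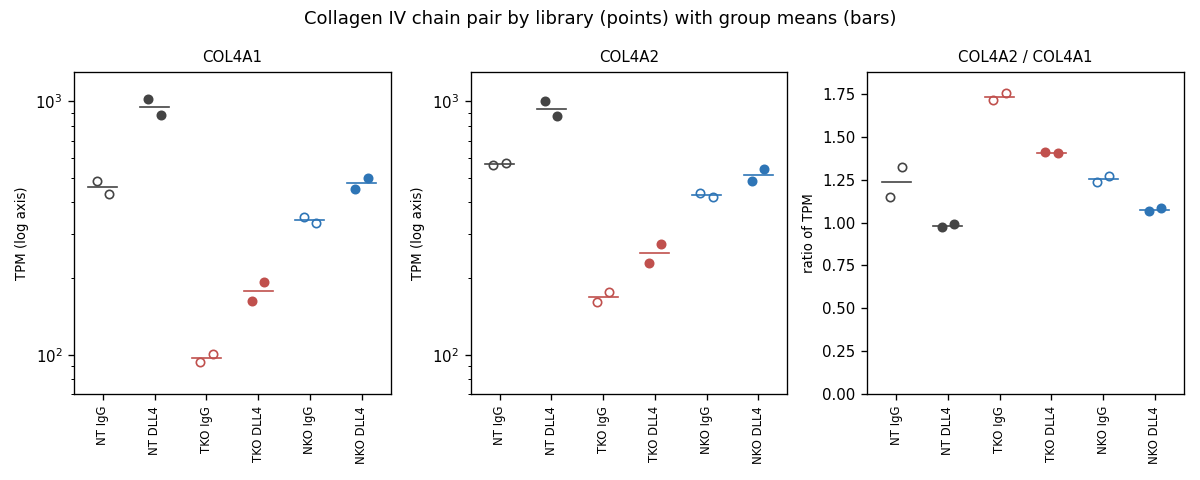
COL4A1 and COL4A2 by library (left and middle, TPM on log axes) and the ratio of the 2 (right, linear axis), with points for libraries and bars for group means. Both genes are lowest in TKO cells, and the ratio is highest there on each coating (1.73 on IgG, 1.41 on DLL4).

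COL4A1 and COL4A2 are neighbours on chromosome 13 and are read in opposite directions from a shared stretch. In GENCODE 29 (GRCh38) COL4A1 lies at chr13:110148963-110307233 on the minus strand and COL4A2 at chr13:110305812-110513209 on the plus strand. These spans overlap, so a stretch between the genes is defined by the RefSeq start sites alone. Those sites, on GRCh38.p14, leave 126 bases between them. That stretch is shown because the genes moved together in every contrast in which either was called. Capitals mark a CCAAT box at bases 22 to 26 and a GC box (GGGCGG) at bases 62 to 67, counted from the 5′ end of the printed plus strand, chr13:110307158-110307283.
COL4A1-COL4A2: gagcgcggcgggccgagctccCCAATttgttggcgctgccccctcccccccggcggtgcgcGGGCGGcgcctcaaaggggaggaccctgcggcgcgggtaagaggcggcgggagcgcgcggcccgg
Of all 27305 RefSeq promoters, 21.86% hold CCAAT and 34.63% hold GGGCGG in a window of the same length on either strand.

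Promoters were matched for 25 of the 31 expressed members. The 250 bases before the RefSeq start (GRCh38.p14) were searched on both strands for the CCAAT box, the GC box GGGCGG, the core TGGGAA of the site bound by RBPJ (the DNA-binding partner of Notch), the E box CACGTG, the HES site CACGCG and the TATA box TATAAA, with overlapping matches counted. GGGCGG was found in 17 of the 25 (68% against 42.31% of all promoters) and CCAAT in 10 (40% against 33.04%). TGGGAA was found in 3 (12% against 21.1%), TATAAA in 3 (12% against 11.13%), CACGCG in 1 (4% against 9.621%) and CACGTG in 0 (against 6.49%). The 25 belong to expressed genes, whereas all promoters include those of genes not expressed here, and the part of this difference in the shares was not tested. A match describes the letters only, and a window without one says nothing of a factor. The promoters of 5 members that moved differently are shown, each on the strand of its gene, with capitals for every match of these motifs in either orientation. NID2 (chr14:52069060-52069309, minus strand) rose on DLL4 in all 3 lines. HSPG2 (chr1:21937311-21937560, minus strand) was higher in TKO cells, and COL5A1 (chr9:134641553-134641802, plus strand) had a smaller response in NKO cells. NID1 (chr1:236065091-236065340, minus strand) holds 1 TGGGAA, and COL17A1 (chr10:104085881-104086130, minus strand) is the member that fell on DLL4 in NT cells.
NID2: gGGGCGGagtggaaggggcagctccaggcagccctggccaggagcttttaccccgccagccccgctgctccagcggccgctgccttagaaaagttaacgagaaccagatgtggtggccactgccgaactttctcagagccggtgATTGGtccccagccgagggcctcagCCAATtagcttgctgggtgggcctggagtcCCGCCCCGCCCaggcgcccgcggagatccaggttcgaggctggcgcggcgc
HSPG2: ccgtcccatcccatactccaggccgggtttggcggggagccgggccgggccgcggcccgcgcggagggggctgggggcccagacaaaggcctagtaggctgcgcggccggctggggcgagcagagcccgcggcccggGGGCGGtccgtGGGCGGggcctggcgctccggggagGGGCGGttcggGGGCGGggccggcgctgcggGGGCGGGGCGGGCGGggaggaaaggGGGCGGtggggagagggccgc
COL5A1: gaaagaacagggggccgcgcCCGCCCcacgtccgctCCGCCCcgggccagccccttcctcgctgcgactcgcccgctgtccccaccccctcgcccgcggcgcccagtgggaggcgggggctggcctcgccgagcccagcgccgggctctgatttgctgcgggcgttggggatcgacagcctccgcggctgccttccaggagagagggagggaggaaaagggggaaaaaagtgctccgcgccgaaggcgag
NID1: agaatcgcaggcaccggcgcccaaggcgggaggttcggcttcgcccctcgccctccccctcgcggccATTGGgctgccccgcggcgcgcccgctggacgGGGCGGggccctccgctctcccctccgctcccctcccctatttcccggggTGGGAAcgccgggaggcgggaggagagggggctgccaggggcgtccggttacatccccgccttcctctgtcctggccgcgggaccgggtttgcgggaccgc
COL17A1: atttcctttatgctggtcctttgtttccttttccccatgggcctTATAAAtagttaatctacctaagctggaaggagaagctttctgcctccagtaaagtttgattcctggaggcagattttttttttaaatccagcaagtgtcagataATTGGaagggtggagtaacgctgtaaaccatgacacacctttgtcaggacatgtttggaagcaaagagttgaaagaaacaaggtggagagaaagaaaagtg
Start sites in RefSeq and GENCODE 29 differ for each of these genes, and for COL4A1 and COL4A2.

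HSPG2, which encodes the large heparan sulfate proteoglycan perlecan, went the other way from collagen IV in TKO cells. NT cells had 354 and 294 TPM on IgG and 654 and 579 TPM on DLL4. TKO cells had 651 and 514 TPM, then 981 and 1021 TPM. NKO cells had 453 and 397 TPM, then 561 and 571 TPM. The TKO libraries on IgG overlapped the NT libraries on DLL4, and the TKO libraries on DLL4 were the highest of all. The log2 change was 0.84 ± 0.12 between TKO and NT on IgG (adjusted p = 0.00048) and 0.70 ± 0.12 on DLL4 (adjusted p = 0.0013). HSPG2 rose on DLL4 by 0.93 ± 0.12 in NT cells (adjusted p = 6e-04) and by 0.79 ± 0.12 in TKO cells (adjusted p = 0.003). On IgG the ratio of HSPG2 to COL4A1 was 0.706 for NT, 6.02 for TKO and 1.25 for NKO, and on DLL4 it was 0.648, 5.64 and 1.19. HSPG2 shares 2121 exon bases on the opposite strand with LDLRAD2 (mean 7.44 TPM), which was also higher in TKO than in NT cells (1.21 ± 0.21 on IgG, 1.13 ± 0.21 on DLL4). Whether counting used the strand is not given in the sources used here, so reads of such overlapping genes may not be separable.

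AGRN, the gene of the heparan sulfate proteoglycan agrin, moved with collagen IV. It stood at 39.7 and 42.6 TPM in NT cells on IgG and at 92.6 and 74.2 TPM on DLL4. TKO cells had 13.4 and 17.7 TPM, then 26.6 and 27.6 TPM, and NKO cells 29.7 and 26.2 TPM, then 30.7 and 38.6 TPM. Every library of the edited lines lay below every NT library. Against NT cells the log2 changes in TKO cells were -1.36 ± 0.15 on IgG (adjusted p = 8.5e-05) and -1.58 ± 0.15 on DLL4 (adjusted p = 2.2e-05), and in NKO cells -0.54 ± 0.15 (adjusted p = 0.047) and -1.24 ± 0.15 (adjusted p = 0.00027). The NKO call on IgG was lost with each of the 4 libraries left out, and with a pseudocount of 0.1.

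COL18A1 encodes collagen XVIII, whose C-terminal fragment is endostatin. On IgG the levels of both edited lines lay within the range of NT cells, with NT at 209 and 247 TPM, TKO at 240 and 219 TPM and NKO at 215 and 216 TPM. On DLL4 they separated, with NT at 497 and 430 TPM, TKO at 318 and 312 TPM and NKO at 257 and 269 TPM. It rose by 1.02 ± 0.09 in NT cells (adjusted p = 5.5e-05) and by 0.46 ± 0.09 in TKO cells (adjusted p = 0.015), and the value in NKO cells was 0.28 ± 0.09 (adjusted p = 0.31). COL18A1 shares 1401 exon bases on the opposite strand with SLC19A1 (mean 40.8 TPM), which moved the other way: on DLL4 its log2 change was -0.65 ± 0.13 in NT cells.

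The nidogens parted in NKO cells. NID2 stood at 40.1 and 29.4 TPM in NT cells on IgG and at 97.0 and 88.4 TPM on DLL4. TKO cells had 29.3 and 31.9 TPM, then 63.1 and 61.3 TPM. NKO cells had 14.6 and 11.6 TPM, then 34.9 and 27.4 TPM, so that NKO cells on DLL4 overlapped NT cells on IgG. The rise on DLL4 was 1.41 ± 0.16 in NT (adjusted p = 0.00024), 1.00 ± 0.16 in TKO (adjusted p = 0.0039) and 1.19 ± 0.16 in NKO cells (adjusted p = 0.0054). The NKO rise no longer passed with no filter on low values or in a fit of only the NKO libraries (largest adjusted p = 0.31). NKO cells were lower than NT cells by -1.34 ± 0.16 on IgG (adjusted p = 0.00039) and -1.55 ± 0.16 on DLL4 (adjusted p = 8e-05). NID2 shares 1915 exon bases on the opposite strand with RTRAF (mean 226 TPM), whose log2 changes lay between -0.19 and 0.21 in the 7 contrasts between groups.

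NID1 had 30.3 and 30.6 TPM in NT cells on IgG and 62.5 and 50.4 TPM on DLL4, a rise of 0.86 ± 0.16 (adjusted p = 0.0051). In NKO cells it was 42.6 and 37.1 TPM, then 48.6 and 52.9 TPM, and in TKO cells 20.7 and 30.4 TPM, then 30.2 and 33.2 TPM. On IgG the NKO libraries of NID1 lay above the NT libraries, whereas those of NID2 lay below. The change of NID1 between NKO and NT on IgG did not pass (0.38 ± 0.16, adjusted p = 0.17). The ratio of NID2 to NID1 on IgG was 1.14 ± 0.26 for NT, 1.23 ± 0.26 for TKO and 0.327 ± 0.022 for NKO, and on DLL4 it was 1.65, 1.97 and 0.618.

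The abundant laminin chains were those of the trimers usual in vessels, with alpha4 or alpha5, beta1 or beta2, and gamma1. LAMA4 and LAMA5 together gave 97.5% to 98.9% of alpha chain RNA, and LAMB1 and LAMB2 gave 90.2% to 97.1% of beta chain RNA. LAMC1, the common gamma chain, had 111 and 97.5 TPM in NT cells on IgG and 221 and 182 TPM on DLL4 (0.94 ± 0.13, adjusted p = 0.00091). In the edited lines the values were 0.47 ± 0.13 in TKO (adjusted p = 0.061) and 0.20 ± 0.13 in NKO cells (adjusted p = 0.71). LAMB1 had 360 and 265 TPM on IgG and 527 and 488 TPM on DLL4 in NT cells, and rose (0.71 ± 0.18, adjusted p = 0.024). Its sister chain LAMB2 (146 to 270 TPM over all libraries) was called in no contrast. LAMB1 shares 70 exon bases on the opposite strand with DLD (mean 67.1 TPM), whose log2 change on DLL4 in NT cells was 0.04 ± 0.15.

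LAMA4, which encodes the alpha chain typical of endothelium, had 198 TPM in both NT libraries on IgG and 281 and 256 TPM on DLL4. TKO cells had 152 and 137 TPM, then 212 and 217 TPM. Its rise was called in NT (0.44 ± 0.08, adjusted p = 0.0037) and TKO cells (0.57 ± 0.08, adjusted p = 0.0015). On IgG it was lower in TKO than in NT cells (-0.45 ± 0.08, adjusted p = 0.0013). LAMA5, the alpha5 chain gene, had 241 and 237 TPM in NT cells on IgG and 388 and 300 TPM on DLL4 (0.51 ± 0.11, adjusted p = 0.01). Neither comparison of TKO with NT cells called it. LAMA5 shares 244 exon bases on the opposite strand with ADRM1 (mean 354 TPM), whose log2 change on DLL4 in NT cells was -0.43 ± 0.09. The ratio of LAMA5 to LAMA4 on IgG was 1.21 ± 0.01 for NT, 1.82 ± 0.02 for TKO and 1.54 ± 0.07 for NKO, and on DLL4 it was 1.28, 1.42 and 1.22.

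LAMA3 and LAMB3, an alpha and a beta chain best known from epithelia, differed from NT cells in opposite directions. On IgG, LAMA3 had 5.57 and 4.11 TPM in the NT line, 9.90 and 7.08 TPM in the TKO line and 9.22 and 10.7 TPM in the NKO line. On DLL4 the values were 4.18 and 3.70, 8.16 and 7.77, and 9.29 and 11.0 TPM, so both edited lines lay above NT cells on each coating. On IgG, LAMB3 had 43.1 and 49.2 TPM in the NT line, 34.6 and 28.7 TPM in the TKO line and 32.6 and 28.7 TPM in the NKO line. On DLL4 it had 42.6 and 34.6, 21.8 and 17.7, and 24.8 and 23.1 TPM, so both edited lines lay below NT cells on each coating. The log2 changes against NT on DLL4 were 0.86 ± 0.18 (adjusted p = 0.0039) for LAMA3 and -0.93 ± 0.14 (adjusted p = 0.00055) for LAMB3 in TKO cells, and 1.17 ± 0.18 (adjusted p = 0.0011) and -0.66 ± 0.14 (adjusted p = 0.008) in NKO cells.

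The levels of COL1A2 and LAMA2, both chosen in part by the line they are high in, are given as a description. COL1A2, the alpha2 chain of collagen I, had 2.74 and 2.88 TPM on IgG and 2.18 and 2.50 TPM on DLL4 in the TKO line. It stayed between 0.0269 and 0.243 TPM in all 8 libraries of the other lines. Its partner COL1A1 did not reach 1 TPM in any library. LAMA2, the alpha2 laminin chain, had 1.65 and 0.834 TPM in NT cells on IgG and 2.94 and 2.35 TPM on DLL4, and 0.0827 to 0.785 TPM in the TKO libraries.

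**Figure D5:**
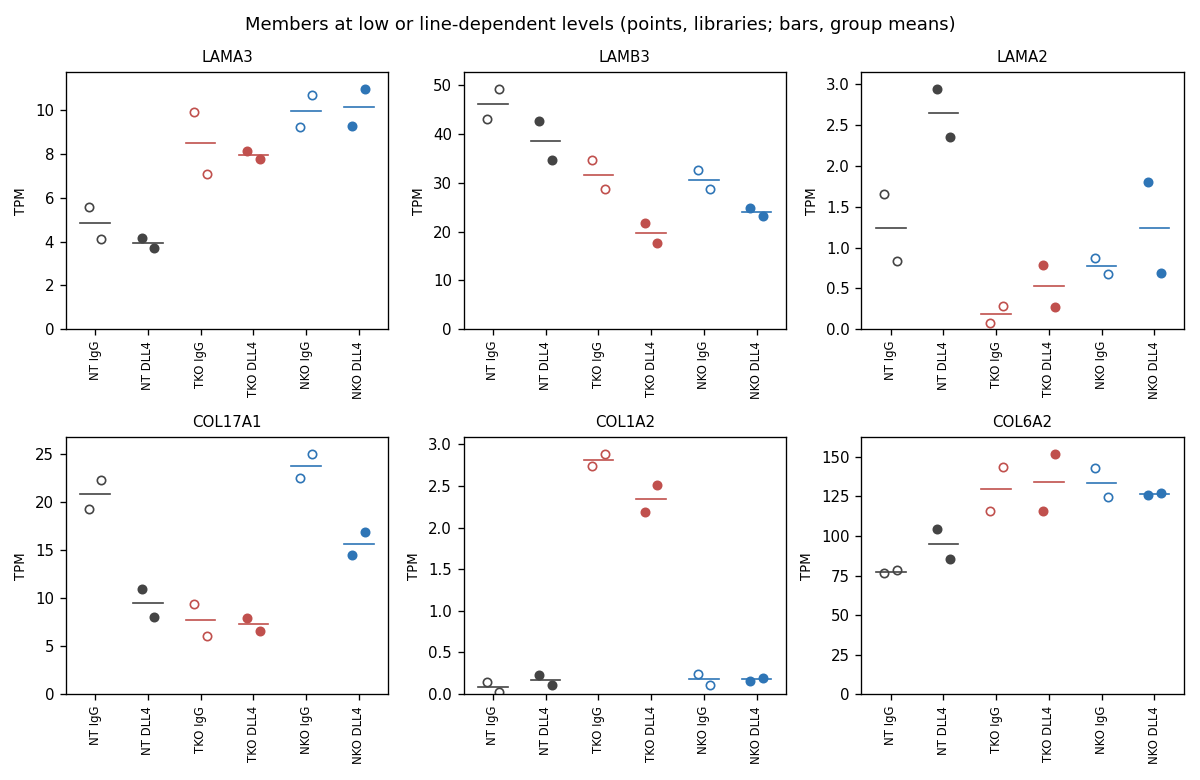
TPM (vertical axes, linear) of LAMA3, LAMB3, LAMA2, COL17A1, COL1A2 and COL6A2 by group, with open points for IgG, filled points for DLL4 and bars for means of 2 libraries. COL1A2 stands above 2 TPM in the TKO libraries and at or below 0.243 TPM in all others.

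COL5A1 had the highest level among the fibrillar collagens. This chain of collagen V, which takes part in starting collagen fibrils, had 60.1 and 62.1 TPM in NT cells on IgG and 173 and 148 TPM on DLL4. TKO cells had 51.1 and 55.2 TPM, then 80.6 and 83.6 TPM. NKO cells had 123 and 106 TPM, then 132 and 155 TPM. NKO cells on IgG thus lay above the NT libraries on IgG, and on DLL4 these lines overlapped. COL5A1 rose on DLL4 by 1.38 ± 0.11 in NT (adjusted p = 1.9e-05) and 0.62 ± 0.11 in TKO cells (adjusted p = 0.0067). Its value in NKO cells was 0.33 ± 0.11 (adjusted p = 0.32), and it was higher in NKO than in NT cells on IgG by 0.89 ± 0.11 (adjusted p = 0.00043). The partner chain COL5A2 (15.2 to 37.4 TPM) and COL27A1 (21.9 to 52.4 TPM) rose in NT cells, by 0.79 ± 0.14 and 0.64 ± 0.14. Both were lower in TKO than in NT cells on DLL4 (-0.94 and -0.79).

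Collagen VI, a beaded filament collagen at the border of the basement membrane, was split. COL6A2 was higher in both edited lines on IgG, at 116 and 144 TPM in TKO and 143 and 124 TPM in NKO cells against 76.5 and 78.5 TPM in NT cells. The log2 changes were 0.73 ± 0.14 (adjusted p = 0.0034) and 0.77 ± 0.14 (adjusted p = 0.0059). COL6A1 (62.3 to 94.1 TPM) had a change of 0.16 in TKO cells, which did not pass (adjusted p = 0.15), and 0.29 in NKO cells (adjusted p = 0.038). COL6A3, the third chain of the usual trimer, was not expressed.

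COL13A1 and COL17A1 are transmembrane collagens. COL17A1 is known from hemidesmosomes of epithelia. It had 19.3 and 22.4 TPM in NT cells on IgG and 11.0 and 8.04 TPM on DLL4 (-1.07 ± 0.20, adjusted p = 0.0046). In TKO cells it had 9.39 and 6.02 TPM on IgG, overlapping NT cells on DLL4, and 7.94 and 6.62 TPM on DLL4. NKO cells had 22.6 and 25.0 TPM, then 14.5 and 16.9 TPM. The change on IgG between TKO and NT was -1.35 ± 0.20 (adjusted p = 0.00049). COL13A1 had 175 and 168 TPM in NT cells on IgG and 215 and 204 TPM on DLL4, whereas TKO cells went from 169 and 138 TPM to 122 and 125 TPM. It was lower on DLL4 in TKO than in NT cells (-0.75 ± 0.10, adjusted p = 0.00015) and in NKO than in NT cells (-0.52 ± 0.10, adjusted p = 0.0033). COL8A1, COL9A3, COL16A1, COL28A1 and LAMB4 passed in no contrast, as did LAMB2, COL4A5 and PXDN.

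Markers of other matrix-making cells were set beside these values. The 8 smooth muscle and pericyte markers summed to 151 to 160 TPM in NT cells on IgG, 208 to 245 TPM there on DLL4, 23.9 to 34.2 TPM in the TKO line and 54.2 to 61.1 TPM in the NKO line. Most of this was RGS5 (2.55 to 221 TPM) and ACTA2 (9.78 to 29.9 TPM). MYH11 reached at most 0.925 TPM, DES reached at most 0.0289 TPM, CSPG4 at most 0.0323 TPM, and KCNJ8 was listed at 0 in all 12 libraries. PDGFRB reached 1 TPM in 3 libraries, all of NT cells (at most 1.31 TPM), and CNN1 in 1, NKO DLL4 1 (1.02 TPM). On each coating RGS5, and with it this sum, was lowest in TKO cells, as were COL4A1 and AGRN. ACTA2 was not low there, at 20.6 and 19.6 TPM on IgG against 12.8 and 14.4 TPM in NT cells. COL4A1 in NKO cells on DLL4 overlapped NT cells on IgG, while the sum did not. The part of such markers in those results was not tested. The 6 fibroblast markers summed to 3.41 to 9.41 TPM, with FAP the highest in every library, DPT listed at 0 and LUM at most 0.0219 TPM. PDGFRA reached 1 TPM in 1 library, NT IgG 2 (1.09 TPM), DCN at most 0.936 TPM and THY1 at most 0.424 TPM. Of the epithelial markers KRT8, KRT18 and KRT19 were high, with sums of 724 to 1345 TPM, while EPCAM reached at most 0.210 TPM, CDH1 at most 0.365 TPM and KRT5 was listed at 0. Of the 6 leukocyte markers only CD14 reached 1 TPM, in 5 libraries, with a highest value of 9.65 TPM in TKO cells.

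Genes that fold and modify collagen were taken as a list. Of its 22 genes 21 were tested. In TKO against NT cells 8 were lower and 1 higher on IgG (median log2 change -0.22), and 8 lower and 0 higher on DLL4 (median -0.13). Of all genes 12.4% were lower and 15.2% higher on IgG, and 10.5% and 16.1% on DLL4, with medians of 0.04 and 0.03. P4HA2, a subunit of prolyl hydroxylase, had the smallest p, with 78.8 ± 1.5 TPM in NT and 39.2 ± 0.5 TPM in TKO cells on IgG (-0.99, adjusted p = 3.6e-06) and -1.18 on DLL4 (adjusted p = 7.9e-07). COLGALT1, P4HA1, SERPINH1 (the collagen chaperone HSP47) and PLOD3 were also lower in TKO cells on both coatings. PLOD2, a lysyl hydroxylase, rose on DLL4 in NT cells from 41.1 ± 4.8 to 92.3 ± 2.8 TPM (1.15, adjusted p = 5.4e-05). Its response was smaller in TKO (-0.93, adjusted p = 0.023) and in NKO cells (-0.78, adjusted p = 0.043). On IgG, PLOD2 was higher than in NT cells in both edited lines (0.79 and 1.10).

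Of 14 genes for processing and cross-linking 8 were tested. On IgG, LOX, lysyl oxidase, had 0.516 ± 0.010 TPM for NT, 23.1 ± 9.1 TPM for TKO and 2.18 ± 0.68 TPM for NKO. LOX passed the expression filter through the edited lines alone, so these levels are a description and no test is read from them. TGM2, a transglutaminase, rose on DLL4 in NT (1.18) and TKO cells (1.09). Of 18 metalloproteinases and inhibitors 12 were tested. In TKO against NT cells 4 were higher and 3 lower on IgG, and 3 higher and 4 lower on DLL4. Of all genes 15.2% were higher and 12.4% lower on IgG, and 16.1% and 10.5% on DLL4. MMP2, a gelatinase that cuts collagen IV, was higher in TKO than in NT cells (1.74 on IgG, 1.44 on DLL4) and in NKO cells (1.49 and 1.01). TIMP1, an inhibitor of these enzymes, was lower in TKO cells (-1.10 and -1.20), from 351 ± 2 to 163 ± 10 TPM on IgG. TIMP2, another inhibitor, stood higher on IgG, at 154 ± 22 TPM in TKO against 97.9 ± 3.5 TPM in NT cells. MMP1 stood lower, at 53.9 ± 0.6 TPM in TKO against 114 ± 27 TPM in NT cells on IgG. MMP15 rose on DLL4 in NT cells (1.15) and was lower in TKO cells on both coatings (-1.53 and -2.04).

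Of 16 collagen and laminin receptors 11 were tested. ITGA6, a laminin receptor subunit, was higher in TKO than in NT cells (1.24 on IgG, 0.81 on DLL4), at 258 ± 60 against 107 ± 7 TPM on IgG. ITGA1, a collagen receptor subunit, rose on DLL4 in NT (1.28) and TKO cells (1.11) and was lower in NKO than in NT cells on DLL4 (-1.23). Of 37 other matrix genes 25 were tested, and 11 rose and 3 fell on DLL4 in NT cells (median 0.19), against 7.68% and 8.34% of all genes (median 0.01). NTN4, which encodes a netrin that binds laminin, rose in NT (1.46), TKO (1.36) and NKO cells (0.94, adjusted p = 0.0014). FN1, fibronectin, rose from 669 ± 121 to 2028 ± 128 TPM in NT cells (1.61) and was lower in TKO cells on both coatings (-1.50 and -1.82). On IgG, POSTN, periostin, had 0.239 ± 0.218 TPM for NT, 265 ± 50 TPM for TKO and 61.8 ± 3.2 TPM for NKO. Of the 25 genes, 13 were higher and 6 lower in TKO than in NT cells on IgG (median 0.60), against 15.2% and 12.4% of all genes. In NKO cells 12 were higher and 3 lower (median 0.29), against 4.92% and 5.74%. The 25 include POSTN, which passed the expression filter through the edited lines alone. SMOC2 passed it through TKO cells alone, and SMOC1 through NT cells on DLL4 alone. Such differences are in part built into the filter, and these genes enter the counts and medians of the 25. SPARC, a collagen-binding protein, and THBS1, thrombospondin 1, responded less to DLL4 in NKO than in NT cells (-0.76 and -1.60, adjusted p = 0.047 for both).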

How the data were processed

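The deposited table holds TPM per gene symbol, made by the authors. The submitters' processing notes name kallisto, edgeR and hg38, with versions, annotation and strandedness not given in the sources used here. NT and TKO columns are numbered 2 and 3 and NKO columns 1 and 2, while the labels number every group 1 and 2, so columns were matched to groups only. Genes at 1 TPM or more in at least 2 libraries (13299) were fitted as log2(TPM + 1) in limma 3.58.1 (R 4.3.3), with 6 group means and eBayes moderation along the mean level. The 9 contrasts were tested two-sided, each adjusted by Benjamini-Hochberg over all genes. The fit had 6 residual degrees of freedom, 10.8 after moderation, and was tested on simulated data. An exact permutation test of 2 against 2 libraries cannot go below p = 0.333, so none was used. Errors are SE for log2 changes and SD for TPM (n = 2), and no interval for depth can be given. Alternatives were 0.1 in place of 1 as pseudocount, testing all genes or those averaging 5 TPM, median-of-ratios scaling, the column number as a block, a fit of only the groups compared, and leaving out each library. Leaving out KPNA2P2 was added after seeing the data. Named genes were the targeted genes, expressed basement membrane members, other members called at 5 TPM or more or nearest the threshold, and up to 4 genes per contrast of each other list. A gene that the rule also selects is not reported here and enters no count, sum or median of members. Members, lists and this rule were chosen with earlier results of these data known. Figures used matplotlib 3.10.9 in Python 3.11.15.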

Additional observations from a re-analysis of the deposited data

Results flagged for a closer look

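COL5A1 and COL18A1 responded less to DLL4 in NKO than in NT cells by limma's test of the difference, by -1.05 and -0.74 on the log2 scale. In 3 further cases the libraries of NT cells moved one way on DLL4 and those of an edited line the other way, without overlap, but the difference did not pass limma's test. This pattern held for 1 of 31 members and 7.04% of all genes for TKO, and for 2 of 31 members and 3.65% of all genes for NKO. For COL13A1 the difference was -0.586 between TKO and NT and -0.469 between NKO and NT. For LAMB4, near 1 TPM, it was -0.549 between NKO and NT. LAMB4 reached 1 TPM only in both NT libraries on DLL4 and in NKO IgG 2. The expression filter thus favoured this pattern, and nothing is read from it, though LAMB4 is among the 2 of 31 members above.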

How the results depend on the processing

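Of 80 calls of members, 42 held in every alternative, 38 were lost in at least 1 and 0 changed direction. With each library left out in turn, the lone library of its group being assumed to vary like the others, the members called numbered 11 to 15 for DLL4 in NT, 4 to 9 in TKO and 1 to 1 in NKO, 9 to 11 for TKO against NT on IgG and 14 to 16 on DLL4, 3 to 5 for NKO against NT on IgG and 8 to 12 on DLL4, 0 to 0 for the TKO difference of response and 0 to 2 for the NKO difference. In most of these fits the share of all genes called was also lower than in the main fit. A fit of only the groups compared, where fewer libraries set the spread, gave 1 for DLL4 in TKO and 0 for DLL4 in NKO. It gave 3 for NKO against NT on IgG and 1 for the NKO difference. Of all genes that fit called 1.25%, 0%, 3.19% and 0.526%, in the same order. With no filter the number of genes adjusted for was larger. The counts were 0 for DLL4 in NKO, 5 and 9 for NKO against NT on IgG and DLL4, and 0 for the NKO difference. Of all genes 0.271%, 3.79%, 8.08% and 0.29% were called, in the same order. A filter at a mean of 5 TPM gave 2 for DLL4 in NKO and 1 for the TKO difference, against 1.3% and 1.13% of the genes tested. Median-of-ratios rescaling and leaving out KPNA2P2 also gave 1 for the TKO difference (0.714% and 0.677% of all genes), and the cause was not tested. The pseudocount of 0.1 gave 8 for NKO against NT on IgG (10.4% of all genes) and the main count of members in the other 8 contrasts. The median of all genes was at most 0.117 from 0, in NKO against NT on IgG without NKO IgG 2.

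Same-numbered columns of a line did not deviate together throughout (r of deviations -0.0003 in NT, 0.016 in TKO, 0.279 in NKO), so the numbers were not taken as pairs. With the number as a replicate block the counts for DLL4 were 17 in NT, 10 in TKO and 1 in NKO. Of all genes 17.2%, 7.34% and 1.02% were called. For TKO against NT on IgG and DLL4 the counts were 11 and 18 (28.5% and 27.5% of all genes). For NKO against NT they were 6 and 12 (8.2% and 14.8%). The TKO difference gave 0 (0.699%) and the NKO difference 1 (0.752%).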
